A study of Mus musculus with 5 samples.

Results

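Bins of 400 kb that lay in compartment B in female germline stem cells (FGSCs), spermatogonial stem cells (SSCs), neural stem cells (NSCs) and STO cells were examined for the genes that were nevertheless transcribed in NSCs or STO cells. The compartment letters were those listed by the study from Hi-C, an assay of contacts between chromosomal segments, where the sign of the first principal component (PC1) gives A or B. On 11 autosomes (chr1, 3, 4, 9, 10, 13, 14, 15, 16, 18 and 19), 2525 bins were listed in all 4 cell types, and 533 of these were B in all 4 and 656 were A in all 4. Over 19 autosomes, 5956 bins were listed in at least 1 of the 4 cell types. The 533 shared B bins covered 213.2 Mb and held 1068 genes, of 24904 in the whole RNA-seq data, each placed by the midpoint of its locus in mm9. The bins were thus chosen by the compartment letters, which rest on Hi-C values, and no RNA-seq value served as a criterion. They were, however, chosen with earlier results of these data known, so the choice may not be independent of the RNA-seq values. The other 8 autosomes, which held 12150 genes, were left out of the choice of bins.

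RNA-seq was available for the NSCs in 2 replicates and for STO cells in 3 replicates, and no RNA-seq of FGSCs or SSCs was used here. The NSCs came from primary cultures from E12.5 mouse cortex, grown as monocultures with EGF and bFGF and used at passages 5 to 8. STO is an established line of SIM mouse embryonic fibroblasts resistant to thioguanine and ouabain, used here after more than 30 passages, and the labels give the strain C57BL/6 for both. No genotype or drug treatment separated the groups, and nothing in the labels says whether replicates came from separate cultures, so the spread between replicates may be technical. Values are FPKM, that is, fragment counts scaled to transcript length and to library size, and a gene is called expressed below when its mean FPKM over the replicates of a cell type was 1 or more. Near that limit, a value rested on a median of 45.2 to 85.5 fragments per sample as implied by the deposited confidence intervals, and on at least 11.

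Chromosomes fold into an A compartment, where genes are dense and chromatin is open, and a B compartment, where chromatin is compact, replicates late and often lies at the nuclear lamina. B domains hold few genes, and many of these belong to clustered families used in 1 specialised tissue, such as receptors for odours. A compartment letter describes the contacts of a whole bin, so a single active gene can lie within a bin that is B as a whole.

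The cells carried the markers of their labels. The 6 NSC markers reported here (Nes, Sox2, Pax6, Olig2, Fabp7 and Slc1a3) were all at 1 FPKM or more in both NSC replicates, from 5.04 and 5.22 for Pax6 to 2783 and 3041 for Fabp7. Of these 6, Slc1a3 alone reached 1 in STO cells, at 24.6, 26.5 and 25.8 FPKM. All 6 fibroblast markers (Col1a1, Col1a2, Col3a1, Fn1, Thy1 and Pdgfrb) were at 1 or more in STO cells and summed to 1352 to 1462 there, against 5.05 to 5.12 in NSCs, where only Fn1 had a mean of 1 or more (Thy1 was at 0.751 and 1.10). Some markers of other cells were also present in NSCs. The oligodendrocyte marker Mbp was at 83.4 and 88.3 FPKM, and Mog at 0.503 and 0.578. The astrocyte markers Gfap and Aqp4 summed to 17.5 to 18.8 (2 of 2 at 1 or more), the neuronal markers Dcx, Rbfox3 and Stmn2 to 5.02 to 5.59 (1 of 3) and the germ cell markers Ddx4, Dazl and Zbtb16 to 1.71 to 1.89 (1 of 3). Dcx (4.87 and 4.56) and Zbtb16 (1.85 and 1.68) carried the last 2 sums. Rbfox3 was at most 0.624 in NSCs, Stmn2 at most 0.100, Ddx4 at most 0.0446 and Dazl at most 0.00996. In STO cells Mbp was at most 0.0722 and Mog at most 0.0907 FPKM, and the sums were at most 0.0163, 0.00324 and 0.0558 for astrocytes, neurons and germ cells. Markers of microglia and blood and of endothelium were below 1 in both cell types. The part of such cells in the NSC values given below was not tested, and in bulk RNA fewer cells of a type and less RNA per cell cannot be told apart.

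The letters themselves were uneven between chromosomes. On chr10 and chr14, the SSC letter was the same as the FGSC letter in only 17.1% and 13.2% of bins listed in both, against 60% to 90.4% on the other 9 chromosomes. Chr10 and chr14 gave only 7 and 4 shared B bins, and their shared B bins held more genes per Mb (6.79 and 14.4) than their shared A bins (4.62 and 2.50). Outside these, the SSC and STO letters agreed least on chr13 (53.8% of bins listed in both), where Cox7c and Gdi2 lie, and on chr3 (60.9%). On chr4 only 5 bins were listed in all 4 cell types, of which 3 were B and none A, and these 3 held 15.8 genes per Mb. On chr3, 147 bins were listed in all 4 cell types, of which 72 were B and only 5 A. Pcdh10, Car13 and the S100 genes described below lie there. Counts without chr4, chr10 and chr14 are given beside the results, and calls without chr3 near the end.

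The promoters of the genes on which the results turn are shown first, as the 250 bases that end just before the transcript start, read 5′ to 3′ on the gene's strand from the mm9 genome, with each CG dinucleotide in capitals. Cox7c was highly expressed in both cell types, Pcdh10 and Zic1 in NSCs, S100a4, S100a6 and S100a11 mainly in STO cells, and Olfr920 stands for the olfactory receptor genes, which were not expressed. The stretches lie at chr13:86186401-86186650 on the minus strand (Cox7c), chr3:45182070-45182319 on the plus strand (Pcdh10), chr9:91260638-91260887 on the minus strand (Zic1), chr3:90407442-90407691 on the plus strand (S100a4), chr3:90416566-90416815 on the plus strand (S100a6), chr3:93324168-93324417 on the plus strand (S100a11) and chr9:38560131-38560380 on the plus strand (Olfr920).
Cox7c: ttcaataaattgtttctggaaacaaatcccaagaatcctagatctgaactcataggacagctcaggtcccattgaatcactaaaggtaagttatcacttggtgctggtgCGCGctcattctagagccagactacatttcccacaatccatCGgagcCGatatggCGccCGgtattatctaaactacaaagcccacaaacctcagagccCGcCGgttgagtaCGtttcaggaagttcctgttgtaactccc
Pcdh10: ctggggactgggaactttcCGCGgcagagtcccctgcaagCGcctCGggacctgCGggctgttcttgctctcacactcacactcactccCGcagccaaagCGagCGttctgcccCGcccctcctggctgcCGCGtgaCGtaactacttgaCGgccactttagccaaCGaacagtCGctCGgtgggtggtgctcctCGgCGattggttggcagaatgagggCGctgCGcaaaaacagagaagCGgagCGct
Zic1: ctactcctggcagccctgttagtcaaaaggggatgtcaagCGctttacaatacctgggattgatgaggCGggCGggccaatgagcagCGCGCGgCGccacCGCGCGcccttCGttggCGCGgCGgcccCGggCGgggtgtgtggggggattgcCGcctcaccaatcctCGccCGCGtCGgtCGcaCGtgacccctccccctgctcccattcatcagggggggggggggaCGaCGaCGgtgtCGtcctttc
S100a4: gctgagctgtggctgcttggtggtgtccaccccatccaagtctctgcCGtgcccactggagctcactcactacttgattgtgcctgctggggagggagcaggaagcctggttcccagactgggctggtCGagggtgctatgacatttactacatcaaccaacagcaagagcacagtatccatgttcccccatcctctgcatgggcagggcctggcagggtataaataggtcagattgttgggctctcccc
S100a6: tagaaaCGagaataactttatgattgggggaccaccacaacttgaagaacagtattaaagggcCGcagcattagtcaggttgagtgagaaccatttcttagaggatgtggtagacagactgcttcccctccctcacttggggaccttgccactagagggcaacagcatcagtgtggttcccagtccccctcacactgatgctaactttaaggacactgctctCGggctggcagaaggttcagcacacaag
S100a11: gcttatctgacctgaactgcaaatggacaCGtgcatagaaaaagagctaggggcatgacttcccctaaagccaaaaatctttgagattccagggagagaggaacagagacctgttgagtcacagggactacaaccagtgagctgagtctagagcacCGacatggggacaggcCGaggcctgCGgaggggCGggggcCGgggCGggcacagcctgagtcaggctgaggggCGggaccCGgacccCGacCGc
Olfr920: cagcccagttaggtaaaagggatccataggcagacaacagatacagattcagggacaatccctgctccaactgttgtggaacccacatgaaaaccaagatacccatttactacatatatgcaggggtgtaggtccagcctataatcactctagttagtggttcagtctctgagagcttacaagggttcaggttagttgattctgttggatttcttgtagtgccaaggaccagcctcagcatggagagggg
The upstream stretches of Zic1 and Pcdh10 held 27 and 22 CG dinucleotides, those of S100a11 and Cox7c 11 and 9, those of S100a6 and S100a4 3 and 2, and that of Olfr920 held 0.

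Most genes in the shared B bins were silent. Of the 1068 genes, 185 were expressed in NSCs (17.3%, against 46.3% of 23718 autosomal genes) and 149 in STO cells (13.95%, against 43.7%). In single replicates, 181 and 188 genes reached 1 FPKM in NSCs, and 151, 149 and 148 in STO cells. All NSC values were thus above all STO values, but with 2 against 3 replicates an exact permutation test cannot go below p = 0.1, and no test was made. In total 196 genes (18.4%, against 50.0% of autosomal genes) were expressed in at least 1 of both cell types. Of these, 138 were expressed in both, 47 in NSCs but not STO cells and 11 in STO cells but not NSCs. The remaining 872 were expressed in neither, and 663 of them were listed at 0 in all 5 samples. No transcript of the shared B bins carried a failed status in the files (0 in each sample). In the shared A bins, 2262 of 3784 genes (59.8%) were expressed in at least 1 cell type. Bins with A in some cell types and B in others lay between, with 1883 of 3796 genes (49.6%). Without chr4, chr10 and chr14, 164 genes (16.3%) were expressed in NSCs and 128 (12.7%) in STO cells.

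**Figure D1:**
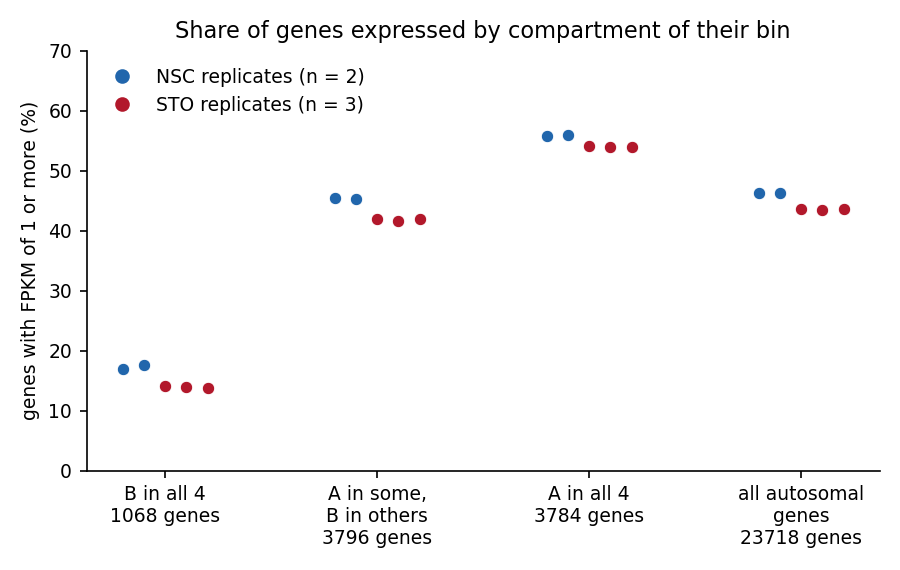
Percentage of genes with an FPKM of 1 or more (vertical axis) in each NSC replicate (blue) and STO replicate (red), for genes in bins B in all 4 cell types, in bins of mixed letters, in bins A in all 4 and for all autosomal genes. The 5 samples sit between 13.9% and 17.6% in the shared B bins and between 53.9% and 55.9% in the shared A bins.

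The levels followed the same order. Over genes, log2(FPKM + 1) had a median of 0 in the shared B bins and 1.88 in the shared A bins of NSCs, and 0 and 1.79 in STO cells. When only genes expressed in both cell types were taken, the median FPKM was 9.28 in NSCs and 11.8 in STO cells in the shared B bins, and 14.8 and 15.6 in the shared A bins. The shared B genes made up 0.771% and 0.831% of all FPKM in the NSC replicates and 1.65%, 1.62% and 1.72% in the STO replicates. The gap was carried by 4 genes of 1 family. Without S100a4, S100a6, S100a10 and S100a11, which were chosen for this sum after their values were seen, the percentages were 0.728% and 0.787% in NSCs and 0.715%, 0.737% and 0.734% in STO cells, and the samples overlapped.

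Expressed genes were spread over 110 of the 533 bins (20.6%). A further 153 bins held genes of which none was expressed, and 270 bins held no gene. Gene density was 5.01 per Mb in the shared B bins, 14.4 in the shared A bins and 7.10 in bins of mixed letters. The shared B bins formed 142 runs of adjacent bins, with a median length of 2 bins, and 56 runs were single bins. The longest run, chr15:13200001-24800000, spanned 29 bins and held only 7 genes, 4 of which encode the type II cadherins Cdh9, Cdh10, Cdh12 and Cdh18. Of these 7, Cdh10 alone was expressed. The run of 25 bins at chr1:110400001-120400000 held 8 genes, of which Cdh19, Dsel, Tsn, Nifk and Clasp1 were expressed. The run of 19 bins at chr3:41600001-49200000 held 7 genes, of which Pcdh10 and 2610316D01Rik were expressed, both in NSCs only.

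Place within a run went with expression. In the 228 bins at the edge of a run, which include the single bins, 142 of 603 genes were expressed (23.5%), and in the 305 bins inside runs 54 of 465 (11.6%). Part of this gap was carried by the receptor genes, since without them the shares were 27.9% at the edge and 20.4% inside. The share was 18.6% in bins 1 step from the edge and 21.5% in bins 2 or more steps away, again without receptors, so it did not fall steadily with distance. A bin next to an unlisted bin also counts as an edge, and neighbouring genes share a bin, so these shares are a description.

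Several clustered families were silent or nearly so. Olfactory, vomeronasal and trace amine receptor genes, which serve the detection of odours and pheromones, were the largest group with 294 genes, and 0 of them were expressed, against 2 of 1465 over all autosomes. Of these, 281 were listed at 0 in all 5 samples, and the highest single value was 0.243 FPKM, for Vmn2r1 in STO replicate 1. Reads of such near-identical genes can be shared or lost in alignment, so their zeros are uncertain. The 36 small proline-rich and late cornified envelope genes, which build the cornified layer of skin, were also silent (0 of 36, with a highest value of 0.898). All 36 autosomal genes of this list lie in the shared B bins, so there is no background to set beside them. The cornified envelope gene Lor, on chr3 but not in this list, was expressed in NSCs. It was at 3.65 and 3.30 FPKM there and listed at 0 in STO cells, and was named after its values were seen. Of 15 cytochrome P450 2c genes 1 was expressed (1 of 16 over all autosomes). Of 19 serpin b genes 1 was expressed (5 of 27 over all autosomes), and of 8 cathepsin and cystatin genes 1 (15 of 50). Of 21 small RNA genes, which these libraries capture poorly, only the host transcript Mir124-2hg was expressed (10 of 1192 over all autosomes). It was at 1.91 and 2.34 FPKM in NSCs and listed at 0 in every STO replicate.

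The share expressed varied widely among the other families. All 12 genes named Zfp, which encode zinc finger proteins, were expressed in at least 1 cell type, against 84.2% of 386 such genes over all autosomes, and 10 of them were expressed in both. With the other factor families searched by symbol, 15 of 19 genes were expressed, against 70.4% over all autosomes, although Foxd2os among them is a noncoding RNA. Of 42 cadherin and protocadherin genes 13 were expressed (38.4% over all autosomes), and of 9 ion channel, neurotransmitter receptor and synapse genes 5 (41.6%). Of 19 solute carrier genes 4 were expressed (52.2% over all autosomes), and of 10 S100 genes 6 (56.3%). Of 6 adhesion and guidance genes of the immunoglobulin family 2 were expressed (73.7% over all autosomes), of 5 histone genes 2 (36.1%) and of 4 HIN-200 interferon-inducible genes 1 (58.3%). Of 3 growth factor genes Fgf12 was expressed (40.6% over all autosomes), and the single matrix gene Adamts7 and both genes of ribosomal and respiratory chain proteins, Mrpl16 and Cox7c, were expressed in both cell types.

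**Figure D2:**
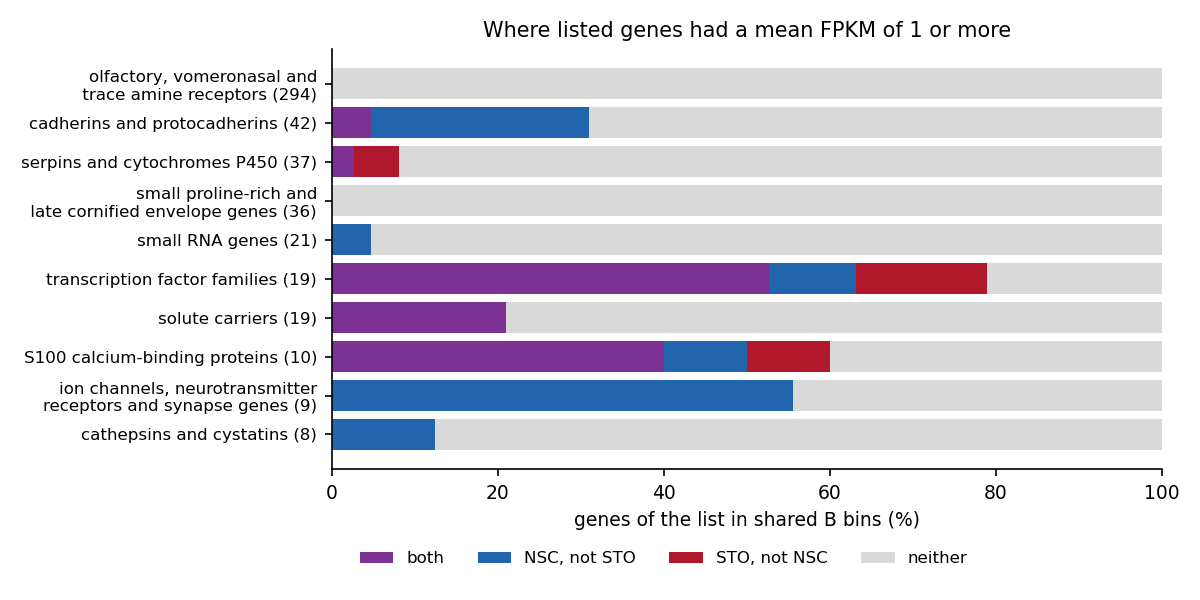
Percentage of the genes of each list (number in parentheses) with a mean FPKM of 1 or more in both cell types, in NSCs only, in STO cells only or in neither. The receptor and cornified envelope lists are grey throughout, and the ion channel and synapse list has genes expressed in NSCs only.

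STO cells and NSCs were then compared gene by gene with limma on log2(FPKM + 1), fitted on the 12292 genes of the whole data that were expressed in either cell type. All 196 expressed genes of the shared B bins entered this fit through the cell type in which they were high. Of these, 81 were higher in STO cells (background 41.9%) and 94 lower (background 43.7%) at an adjusted p under 0.05, and 21 were not called. The called share was thus 89.3%, near the 85.7% over all genes tested, so the number of calls was not a feature of these bins. Replicates of the 2 cell types did not overlap in 93.4% of the 196 genes, against 90.0% over all genes tested. When a difference of at least 1 on the log2(FPKM + 1) scale was also required, 31 genes were higher (background 17.1%) and 57 lower (background 21.3%), 44.9% in all against 38.4% over all genes tested. The 138 genes expressed in both cell types split into 70 higher, 48 lower and 20 not called. The same split over all genes expressed in both cell types was not computed, so it is not read as a feature of these bins. Of the 47 genes expressed in NSCs but not STO cells 46 were lower in STO cells, and all 11 of the opposite kind were higher, directions that the expression limit largely fixed.

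**Figure D3:**
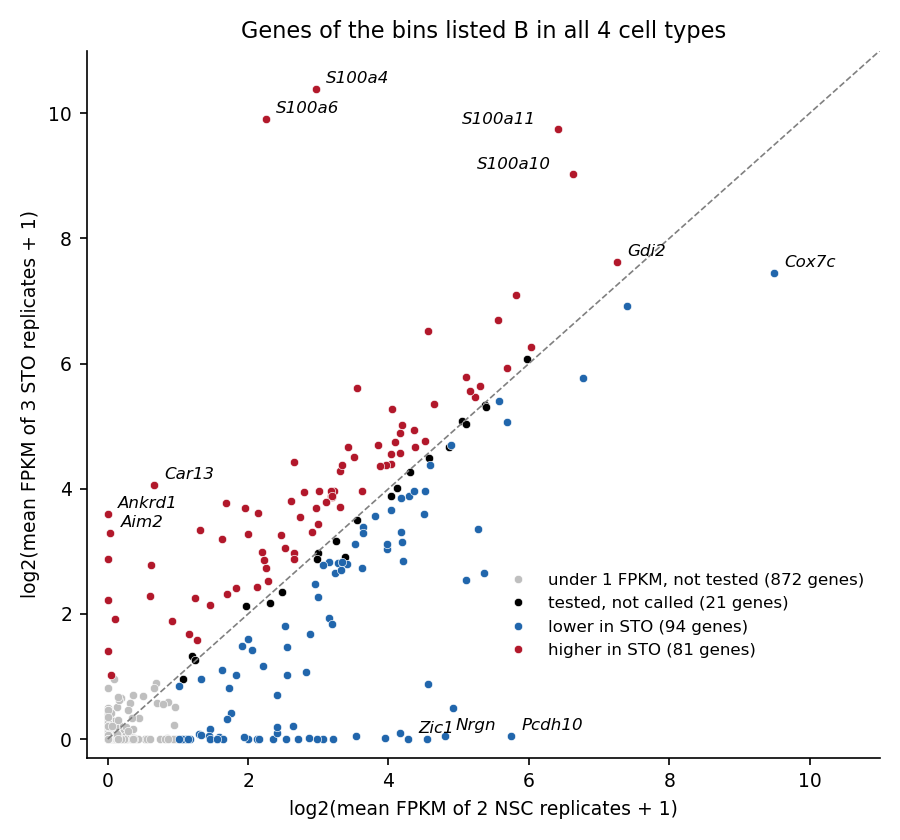
The log2 of the mean FPKM plus 1 of the 2 NSC replicates (horizontal axis) and the 3 STO replicates (vertical axis) for the 1068 genes of the shared B bins, coloured by the limma call. The 872 grey genes lie near the origin, S100a4 and S100a6 stand far above the dashed line of equal levels, and a row of NSC genes lies along the horizontal axis.

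Several genes were highly expressed in both cell types. Cox7c (chr13:86184403-86186400), which encodes a subunit of cytochrome c oxidase in the respiratory chain, was the highest gene of the shared B bins in NSCs. It stood at 598 and 846 FPKM in NSCs and at 193, 157 and 168 in STO cells, and was lower in STO cells by a log2 fold change of -2.04 ± 0.16 (SE, adjusted p = 3.7e-05). The NSC replicates differed more from each other than the STO replicates, but no NSC value came near an STO value. Gdi2 (chr13:3537321-3565507), an inhibitor of GDP release from Rab proteins in membrane traffic, stood at 146 and 157 FPKM in NSCs and at 184, 200 and 204 in STO cells (log2 fold change 0.37 ± 0.07, adjusted p = 0.0029). Morf4l1 (chr9:89986507-90009658), a chromodomain protein of histone acetylation complexes, had 183 and 152 FPKM in NSCs and 113, 122 and 126 in STO cells (-0.47 ± 0.10, adjusted p = 0.0037). These genes of the shared B bins were thus expressed at more than 100 FPKM in every replicate of both cell types.

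Other genes in the 10 highest of either cell type differed to a varying degree between them. Oxct1 (chr15:3976428-4105344), the mitochondrial enzyme that activates ketone bodies for use, rose from 54.2 and 57.1 FPKM in NSCs to 131, 135 and 142 in STO cells (log2 fold change 1.27 ± 0.06, adjusted p = 2.7e-06). Cmpk1 (chr4:114633218-114659833), which phosphorylates UMP and CMP, rose from 48.8 and 43.7 to 101, 101 and 106 FPKM (1.14 ± 0.07, adjusted p = 7.8e-06). Fam111a (chr19:12648000-12664259), a protease linked to DNA replication, rose from 21.0 and 24.3 to 84.2, 90.8 and 96.5 FPKM (1.95 ± 0.09, adjusted p = 2.1e-06). In each of these 3 genes the groups were well apart. Rbis (chr3:14606289-14611256), a ribosome biogenesis factor, was lower in STO cells, with 104 and 112 FPKM in NSCs and 47.9, 47.6 and 65.3 in STO cells (-1.02 ± 0.15, adjusted p = 0.00067). Slc3a2 (chr19:8781372-8797859), the heavy chain shared by several amino acid transporters, was only slightly higher, with 63.8 and 65.4 against 74.2, 73.6 and 79.7 FPKM (0.23 ± 0.06, adjusted p = 0.0099), and this call was lost without NSC replicate 1 (adjusted p = 0.056). Xpnpep1 (chr19:53065670-53113144), an aminopeptidase, stood at 63.4 and 59.7 in NSCs and 65.9, 63.6 and 68.6 in STO cells and was not called (adjusted p = 0.16). The mitochondrial ribosomal gene Mrpl16 had 27.3 and 30.1 against 26.0, 23.0 and 25.6 FPKM, so its replicates did not overlap, but its call (-0.20 ± 0.08, adjusted p = 0.047) was lost when any 1 of the 5 replicates was left out (adjusted p = 0.053 to 0.27).

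The largest rises were those of the S100 genes S100a6 and S100a4 on chr3. S100 genes encode small calcium-binding proteins. Those of the shared B bins lie on the same chromosome as the silent small proline-rich and late cornified envelope genes. S100a4 (chr3:90407692-90409967) was at 6.95 and 6.63 FPKM in NSCs and at 1354, 1202 and 1448 in STO cells, where it was the highest gene of the shared B bins (log2 fold change 7.42 ± 0.09, adjusted p = 7.8e-09). S100a6 (chr3:90416816-90418336) was at 3.45 and 4.08 FPKM in NSCs and at 988, 833 and 1047 in STO cells (7.65 ± 0.11, adjusted p = 1.5e-08). Both genes were thus expressed at a low level in NSCs and were the 2 highest genes of the shared B bins in STO cells. S100a11 (chr3:93324418-93330210) and S100a10 (chr3:93359039-93368567), whose products bind annexins, lie in other bins of the same chromosome and were already well expressed in NSCs. S100a11 rose from 79.2 and 89.5 to 846, 869 and 875 FPKM (3.34 ± 0.07, adjusted p = 7.4e-08), and S100a10 from 102 and 94.4 to 517, 493 and 562 FPKM (2.41 ± 0.08, adjusted p = 4.8e-07). Of the 6 S100 genes tested, 5 were higher in STO cells (background 41.9%) and 1 lower (background 43.7%), a list chosen after its values were seen. The lower one, S100a3, was at 1.15 and 1.255 FPKM in NSCs and listed at 0 in STO cells, but only 1 of its transcripts lies inside the shared B bins, and those outside had 0.233 and 0 FPKM in NSCs and 0.524, 0.457 and 0.430 in STO cells.

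**Figure D4:**
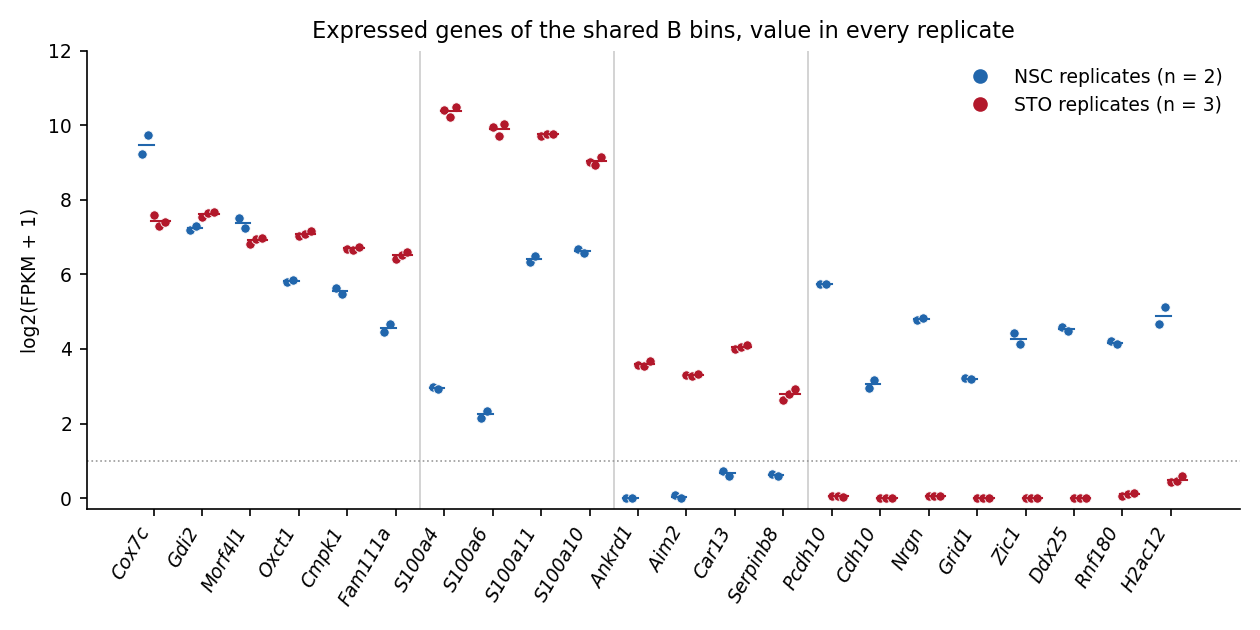
log2(FPKM + 1) of 22 expressed genes of the shared B bins in each NSC replicate (blue) and STO replicate (red), with the mean of each group as a short line and the expression limit of 1 FPKM as a dotted line. The groups are from left to right genes high in both, S100 genes, genes expressed in STO cells only and genes expressed in NSCs only. No replicates of the 2 cell types overlap, which for the genes named as largest rises or falls was a condition of the choice.

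Only 11 genes were expressed in STO cells but not NSCs. The highest was Car13 (chr3:14641727-14663002), a cytosolic carbonic anhydrase, with 0.650 and 0.518 FPKM in NSCs and 15.04, 15.6 and 16.3 in STO cells (log2 fold change 3.40 ± 0.06, adjusted p = 4.0e-08). Ankrd1 (chr19:36186455-36194334), an ankyrin repeat protein known from stressed heart muscle, was listed at 0 in both NSC replicates and stood at 10.8, 10.7 and 11.8 FPKM in STO cells (3.60 ± 0.06, adjusted p = 2.3e-08). Aim2 (chr1:175350735-175396167), a sensor of DNA in the cytoplasm, was at 0.0501 and 0 in NSCs and at 8.89, 8.62 and 8.97 in STO cells (3.26 ± 0.05, adjusted p = 1.9e-08). Ankrd1 and Aim2 were at or near 0 in NSCs and Car13 was below the expression limit, and the STO replicates of each gene were close together. Aim2 was the only 1 of 4 HIN-200 genes to be expressed. Serpinb8, an intracellular protease inhibitor, was at 0.565 and 0.502 in NSCs and 5.18, 5.93 and 6.56 in STO cells (2.16 ± 0.09, adjusted p = 1.6e-06), and the cytochrome P450 gene Cyp2c55 at 0.112 and 0.0438 against 2.94, 2.59 and 2.79 (1.81 ± 0.06, adjusted p = 5.3e-07). Named after their values were seen, the forkhead gene Foxd2 and its noncoding neighbour Foxd2os on chr4 had means of 0.00607 and 0 FPKM in NSCs and 3.65 and 6.33 in STO cells.

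The 47 genes expressed in NSCs but not in STO cells included 11 cadherins and protocadherins and 5 ion channel, receptor and synapse genes. All 13 expressed cadherins and protocadherins, which join cells through calcium-dependent contacts, were lower in STO cells (background 43.7%), but 11 of them entered the test through NSCs alone, so that the expression limit largely fixed their direction. Pcdh10 (chr3:45182320-45238501) was the highest of them, at 53.0 and 52.8 FPKM in NSCs and 0.0423, 0.0340 and 0.0294 in STO cells (-5.70 ± 0.05, adjusted p = 5.0e-09). It was the largest fall of all shared B genes tested. Cdh10 (chr15:18748702-18943991), a type II cadherin, was at 6.78 and 7.93 FPKM in NSCs and listed at 0 in every STO replicate (-3.06 ± 0.07, adjusted p = 7.5e-08). The beta protocadherins Pcdhb2 to Pcdhb11 lie together in 1 bin of chr18, chr18:37200001-37600000, where 10 of 29 genes were expressed, the most in any shared B bin. Pcdhb10 had 5.91 and 4.59 FPKM in NSCs and 0.156, 0.136 and 0.164 in STO cells (-2.43 ± 0.09, adjusted p = 9.3e-07), and Pcdhb11 had 3.71 and 4.98 against 0.159, 0.118 and 0.137 (-2.22 ± 0.10, adjusted p = 2.2e-06). Of these 10, only Pcdhb5 and Pcdhb9 were expressed in STO cells too. These genes are alike in sequence, so reads may have been split between them. The alpha protocadherins of the neighbouring cluster (Pcdha1 to Pcdha12, Pcdhac1 and Pcdhac2), which share their last exons, were listed at 0 in every sample.

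All 5 expressed ion channel, receptor and synapse genes were expressed in NSCs only and lower in STO cells (background 43.7%), a direction that the expression limit largely fixed. Grid1 (chr14:35633322-36394301), a glutamate receptor of the delta class, was at 8.28 and 8.16 FPKM in NSCs and listed at 0 in STO cells, on a chromosome with the uneven letters described above (log2 fold change -3.21 ± 0.04, adjusted p = 1.1e-08). The potassium channel genes Kcnv1 (3.03 and 3.67 FPKM) and Kcnn2 (2.35 and 3.64) were also listed at 0 in every STO replicate. The serotonin receptor gene Htr1b was at 1.92 and 2.72 FPKM in NSCs and 0.687, 0.700 and 0.902 in STO cells (-0.90 ± 0.11, adjusted p = 0.00035). Nrgn (chr9:37352078-37360330), a calmodulin-binding protein of synapses, stood out with 26.6 and 27.3 FPKM in NSCs and at most 0.0450 in STO cells (-4.75 ± 0.05, adjusted p = 5.7e-09). The adhesion gene Cadm3 was at 4.28 and 3.93 FPKM in NSCs and listed at 0 in STO cells, and Nectin3 was lower in STO cells but expressed in both (16.2 and 18.6 against 7.78, 7.89 and 7.98 FPKM). Fgf12, a growth factor homologue that acts inside cells, was at 1.24 and 1.08 FPKM in NSCs and at 0 in STO cells. Further transcripts of Fgf12 outside the shared B bins had 2.17 and 2.43 FPKM in NSCs and 0 in STO cells.

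Other large falls had varied roles. Zic1 (chr9:91255183-91260637), a zinc finger factor of the developing nervous system, was at 20.4 and 16.6 FPKM in NSCs and listed at 0 in STO cells (log2 fold change -4.28 ± 0.09, adjusted p = 5.6e-08). Ddx25 (chr9:35349433-35366055), an RNA helicase known from the testis, was at 23.3 and 21.5 FPKM and also at 0 in STO cells (-4.55 ± 0.05, adjusted p = 7.7e-09). Rnf180 (chr13:105920650-106084565), a ubiquitin ligase, was at 17.5 and 16.5 FPKM in NSCs and at most 0.0936 in STO cells (-4.07 ± 0.06, adjusted p = 1.2e-08). The histone H2A gene H2ac12 had 24.3 and 34.1 FPKM in NSCs and 0.340, 0.371 and 0.502 in STO cells (-4.41 ± 0.14, adjusted p = 4.2e-07), and as a member of a repeated family it may share reads with its copies. In all these genes the lowest NSC value was far above the highest STO value, but a lack of overlap was a condition for naming them. All were expressed in NSCs only, so the expression limit largely fixed their direction.

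The zinc finger genes showed no common direction. Of the 12 Zfp genes tested, 4 were higher in STO cells (background 41.9%), 4 lower (background 43.7%) and 4 not called. Zfp91 was at 35.4 and 31.4 FPKM in NSCs and 51.8, 55.4 and 54.6 in STO cells (log2 fold change 0.68 ± 0.07, adjusted p = 0.00012), Zfp426 at 8.78 and 8.74 against 6.13, 5.78 and 6.29 (-0.47 ± 0.06, adjusted p = 0.00029), and Zfp266 at 16.1 and 16.7 against 15.9, 15.9 and 13.3, which was not called (adjusted p = 0.23). A group of 5, Zfp560, Zfp26, Zfp426, Zfp266 and Zfp846, share the bin chr9:20000001-20400000, and all 5 were expressed in both cell types. The 4 expressed solute carriers split evenly, with Slc31a2, a copper transporter, and Slc3a2 higher in STO cells and Slc39a10, a zinc transporter, and Slc33a1, an acetyl-CoA transporter, lower. Serpini1, the neural serpin, was lower (4.75 and 5.02 against 0.937, 1.01 and 1.18 FPKM), and the metalloprotease Adamts7 was higher (5.36 and 6.00 against 11.5, 10.5 and 10.2 FPKM).

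In all, 10 bins held 4 or more expressed genes, and genes of different patterns could share a bin. The bin chr4:114400001-114800000, on the chromosome with only 5 listed bins, held Cmpk1 and Stil, expressed in both cell types, and Foxd2, Foxd2os and Tal1, expressed in STO cells only. The bin chr3:90400001-90800000 held S100a4 and S100a6, expressed in both, beside S100a3, expressed in NSCs only, and S100a7a, expressed in STO cells only, and no other of the 10 bins held genes of both of these last kinds. At chr9:37200001-37600000, Nrgn, expressed in NSCs only, lay with Msantd2, Spa17, Siae and Tbrg1, which were expressed in both. At chr14:52800001-53200000, on a chromosome where the SSC letters were mostly opposite, Chd8, Rab2b, Tox4, Mettl3 and Sall2 were all expressed in both cell types. These genes were named after their values were seen.

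Expressed genes differed from silent ones in features that the choice of bins did not use. Their loci were longer, with a median of 26.1 kb against 3.97 kb for the 872 genes expressed in neither cell type, and the medians in the shared A bins were 24.0 and 8.59 kb. The 872 genes include the 294 receptor genes and 20 small RNA genes, and the median length without these was not computed. Their promoters held more CpG. In a window from 250 bases before to 50 bases after the transcript start, which could be read for 998 of the 1068 genes (93.4%), the median number of CG dinucleotides was 22 in the genes expressed in both cell types, 9 in those expressed in NSCs only, 8 in those expressed in STO cells only and 2 in those expressed in neither. The ratio of observed to expected CG, which corrects for base composition, had medians of 0.825, 0.579, 0.421 and 0.148 in the same order. A ratio of at least 0.6 was found in 77.9% of the genes expressed in both, 47.8% of those in NSCs only, 27.3% of those in STO cells only and 6.21% of those in neither, and in 48.6% of 22333 autosomal genes. Genes expressed in both cell types had much the same promoters in the shared B bins as in the shared A bins, where the median ratio was 0.819 and 84.2% reached 0.6. Of silent genes, 24.0% reached 0.6 in the shared A bins and 6.21% in the shared B bins, or 9.53% without the receptor genes. Among the printed promoters, the full windows of S100a4 and S100a6 held 2 and 6 CG dinucleotides with ratios of 0.087 and 0.33, both below the medians of the 3 groups of expressed genes, whereas Zic1 and Pcdh10 had ratios of 0.957 and 0.824.

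**Figure D5:**
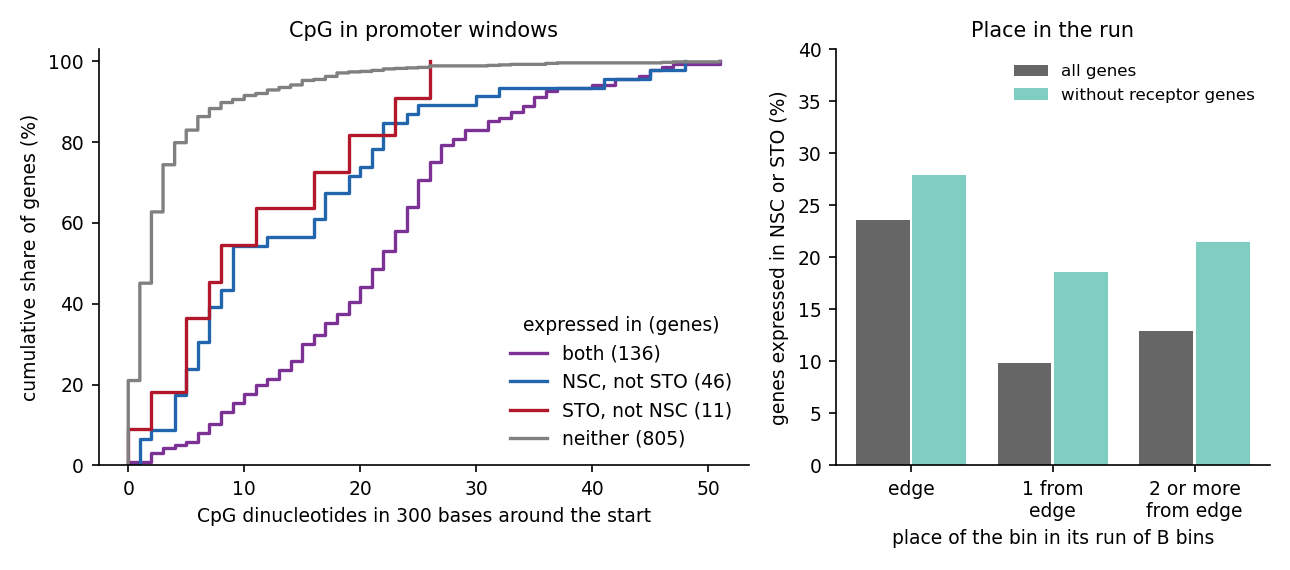
Left, cumulative percentage of shared B genes (vertical axis) against the number of CG dinucleotides in the 300-base promoter window, by the cell type in which they were expressed. Right, percentage of genes expressed in NSCs or STO cells by the place of their bin in its run, with all genes (grey) and without receptor genes (green), 23.5% and 27.9% at the edge.

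The expression limit itself divided few genes. The genes just above it were Asxl3, with a mean of 1.02 FPKM in NSCs (0.979 and 1.07) and 0.795 in STO cells, and Tal1, with 1.02 in STO cells (1.19, 0.872 and 1.01) and 0.0361 in NSCs. The genes just below it were AW551984, at 0.952 in NSCs (1.10 and 0.803), and Khdrbs2, at 0.951 (0.881 and 1.02) and listed at 0 in STO cells. When 1 FPKM was required in every replicate, 180 genes remained in NSCs and 144 in STO cells. The letter of the shared B bins in iPSCs, which the choice of bins did not use, was B in 282 bins and A in 7, and 244 bins had no letter listed. In the bins that were B in iPSCs as well, 110 of 599 genes (18.4%) were expressed in NSCs and 82 (13.7%) in STO cells.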

How the data were processed

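RNA-seq of 2 NSC and 3 STO libraries was used. Per the labels and the study's methods, stranded libraries of polyadenylated RNA were read as 2 x 150 bases and aligned to mm9, and the submitters' processing notes name HISAT2 4.8.2 and Cufflinks 2.2.1. The authors deposited FPKM values of 40201 transcripts per sample, and the strand setting and the annotation version are not given in the sources used here. The compartment letters came from the study's list of 400-kb bins (Hi-C, sign of PC1 from HiTC), and PC1 values were not used here.

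Transcripts were named through the RefSeq table of GRCm38.p6 (99.4% matched, and 18 genes of the shared B bins kept their identifier), placed by locus midpoint in mm9, and summed per symbol. Depth was estimated from the deposited confidence intervals, as 15223300 to 22271900 implied fragments per sample. These cover counting error only. Genes whose mean reached 1 FPKM in NSCs or STO cells were tested with limma 3.58.1 (R 4.3.3) on log2(FPKM + 1) with a mean-variance trend, and p-values were adjusted by Benjamini-Hochberg over all genes tested, with a threshold of 0.05. On simulated data of 12292 genes, 192 of 200 genes changed by 1 log2 unit were recovered, with 4 false calls. Far fewer genes changed there than were called in the data (85.7%), so its false calls do not measure errors among the calls above. Other steps were run with pandas 2.3.3, numpy 2.4.6, scipy 1.17.1 and matplotlib 3.10.9 in Python 3.11.15.

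Promoter windows of 300 bases were read from the mm9 genome (NCBIM37), with strands from GENCODE vM1 or RefSeq. The RefSeq promoter table had been planned, but held only 783 of the 1068 genes (73.3%), which was too few. Of 17538 autosomal genes in both sources, 90.1% had the same 250 upstream bases.

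The genes named were the 10 highest in each cell type, the 6 largest rises and the 6 largest falls among called genes without overlap of replicates, up to 4 genes per gene list, and the 2 genes nearest to the limit of 1 FPKM on each side. The bins, the gene lists and the tests were chosen with earlier results of these data known. The lists of S100, Zfp, beta protocadherin, histone, cornified envelope, cathepsin and cystatin, cytochrome P450 2c and serpin b genes were added after the values were seen. Feeder cells, STO for FGSCs and mouse embryonic fibroblasts for SSCs, were part of the cultures behind the letters, FGSCs were collected for Hi-C by fluorescence-activated cell sorting, and any part of feeder cells in the letters was not tested. Some marker genes of NSCs and oligodendrocytes are not reported here.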

Additional observations from a re-analysis of the deposited data

How the results depend on the processing

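The share of genes expressed in NSCs (17.3%) was 19.01% with a limit of 0.5 FPKM, 11.1% (119 genes) with a limit of 5, 16.9% when 1 FPKM was required in every replicate, 23.9% without receptor genes, 16.3% without chr4, chr10 and chr14 and 18.4% (110 genes) in bins B in iPSCs as well. In STO cells (149 genes), the same changes gave 15.4%, 10.7%, 13.48%, 19.3%, 12.7% and 13.7% (82 genes), and 14.2% without small RNAs, 14.2% without chr13 and 13.8% with the whole locus inside the bins. Leaving out 1 replicate gave 181 to 188 genes (16.9% to 17.6%) in NSCs and 148 to 149 in STO cells (13.9% to 14%). The difference in median log2(FPKM + 1) between shared A and shared B bins (1.88 in NSCs and 1.79 in STO cells) was 4.802 and 4.68 with a pseudocount of 0.1, 2.28 and 2.70 over genes above 0, 1.92 and 1.83 without receptors, 1.91 and 1.82 without chr4, chr10 and chr14, 1.95 and 1.85 without chr13, and 1.87 to 1.89 and 1.78 to 1.81 with 1 replicate left out.

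Of the calls (81 higher and 94 lower in STO cells), 31 and 57 remained when a change of 1 or more on the log2 scale was required. That was 44.9% against 38.4% over all genes tested. Among 115 genes in bins B in iPSCs as well, 42 were higher and 63 lower (91.3% called, against 85.7% over all genes tested). Leaving out 1 replicate gave 75 to 80 higher and 87 to 93 lower. With 1 STO replicate left out, 87.2% to 87.8% were called, against 83.1% to 83.4% over all genes tested. Without the filter, 117 were higher and 137 lower of 405 genes tested. This share of 62.7% was below the 70.6% over all 17670 genes tested, unlike in the main fit. With the replicate block, 78 were higher and 92 lower (86.7%, against 83.3% over all genes tested). Without chr3, 67 were higher and 84 lower of 170 genes tested (88.8%, against 85.7%). Deviations of same-numbered samples correlated at 0.00047 and 0.064. With 2 NSC replicates the NSC deviations mirror each other, so this check cannot decide whether the shared numbers pair the samples. STO replicate 3 had no NSC partner. Of 44 named genes none changed direction under any alternative. Under the replicate block Mrpl16 (adjusted p = 0.077) and Slc3a2 (adjusted p = 0.055) lost their call, and with quantile normalization Xpnpep1 gained one (adjusted p = 0.029).

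The median CpG ratio of expressed genes (0.730) and of genes expressed in neither cell type (0.148) was 0.723 and 0.144 without chr4, chr10 and chr14, 0.773 and 0.138 with the RefSeq promoter table, 0.182 for the latter without receptors, and 0.725 to 0.735 and 0.147 to 0.149 with 1 replicate left out. The share expressed at the edge and inside of runs was 27.9% and 20.4% without receptors, 21.8% at the edge without chr4, chr10 and chr14, and 23.2% to 23.9% and 11.6% to 11.8% with 1 replicate left out. The alternatives for promoters and runs, and leaving out chr3, were chosen after seeing the data. Depth limits the values near 1 FPKM, and no test of the shares between cell types was made.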

Other observations

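Of the 578 genes expressed in neither cell type that were not receptor genes, 514 had a promoter window, and 49 of these windows (9.53%) had an observed to expected CG ratio of at least 0.6. The genes given here were chosen after their values were seen. Dmrt1, a regulator of male germ cell fate, was listed at 0 FPKM in all 5 samples and had a ratio of 0.724. Tfap2b, a factor of neural crest and kidney development, and the cadherin gene Cdh7 were also listed at 0 in all 5 samples, with ratios of 1.16 and 0.647. Bhlhe22, a neuronal transcription factor, was at 0.0399 and 0.0637 FPKM in NSCs and 0 in STO cells, with a ratio of 0.747. Lin28b, which blocks let-7 maturation, was at 0 in NSCs and at 0.139, 0.0788 and 0.135 FPKM in STO cells, with a ratio of 0.708. Closer to the limit, Bambi, a decoy receptor of TGF-beta signalling, had 0.543 and 0.680 FPKM in NSCs and 0.880, 0.814 and 0.906 in STO cells, with a ratio of 0.837. Rasgrf1, an activator of Ras and an imprinted gene, had 0.755 and 0.868 FPKM in NSCs and 0 in STO cells, with a ratio of 0.748.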
